A study of Rattus norvegicus with 12 samples.

Results

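The 10 genes described here carry the signal of prolactin and growth hormone from the cell surface to the nucleus: the receptors Prlr and Ghr, the kinase Jak2, the transcription factors Stat5a, Stat5b and Stat3, and the feedback inhibitors Cish, Socs1, Socs2 and Socs3. They were chosen by name from knowledge of the pathway, with earlier results of these data known, out of 30206 genes in the table. All 10 were among the 14599 genes with enough counts to be tested. Messenger RNA was sequenced from the pubocaudalis, a pelvic floor muscle, of 3-month-old female Sprague-Dawley rats. Every rat had simulated birth injury (SBI), a vaginal balloon distention late in pregnancy, and then delivered. Pups were removed at birth in 1wk SBI and 3wk SBI, whereas dams of 1wk SBI + Lac and 3wk SBI + Lac nursed, with weaning at 3 weeks, and muscle was taken 1 or 3 weeks after injury. Each group held 3 libraries, each made from the pooled RNA of 2 rats, and all 4 groups were injured and postpartum, so an uninjured muscle was not compared here. The question was whether this muscle holds the prolactin receptor and whether the Stat5 targets Cish and Socs2 differ with lactation at either time.

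Prolactin and growth hormone are made mainly in the pituitary and reach muscle through the blood. Their receptors have no enzyme of their own and rely on Jak2, which phosphorylates the receptor and then Stat5a and Stat5b. Phosphorylated Stat5 enters the nucleus and turns on, among other genes, Cish and Socs2, whose proteins damp the receptor again, so that their mRNA is often read as a sign of recent Stat5 activity. Growth hormone acts on skeletal muscle largely through Ghr and the growth factor Igf1, while prolactin is best known for its action on the mammary gland during lactation.

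The promoters of Cish and Socs1 are shown because Cish is the gene on which the 1-week comparison turns, and because the Stat5 binding motif can be seen in both. RefSeq (build GRCr8) gave a promoter, 250 bases before to 50 bases after the start of transcription, for 9 of the 10 genes, and Socs2 was not among them. The motif searched was TTCNNNGAA, which reads the same on both strands, and capitals mark each match. The first promoter lies at chr8:116850719-116851018 and the second at chr10:5389324-5389623, both on the plus strand.
Cish: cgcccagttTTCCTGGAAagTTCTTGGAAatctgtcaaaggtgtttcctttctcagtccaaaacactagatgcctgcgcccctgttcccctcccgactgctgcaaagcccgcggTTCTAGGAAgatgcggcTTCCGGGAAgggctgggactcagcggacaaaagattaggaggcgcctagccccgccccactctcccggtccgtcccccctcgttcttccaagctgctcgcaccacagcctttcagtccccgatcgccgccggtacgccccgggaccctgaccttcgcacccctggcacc
Socs1: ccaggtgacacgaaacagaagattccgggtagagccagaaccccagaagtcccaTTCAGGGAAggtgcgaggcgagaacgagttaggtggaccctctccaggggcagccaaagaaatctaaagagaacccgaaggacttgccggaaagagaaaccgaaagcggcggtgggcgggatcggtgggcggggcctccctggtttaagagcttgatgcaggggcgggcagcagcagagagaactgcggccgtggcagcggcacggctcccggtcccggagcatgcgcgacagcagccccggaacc
The Cish promoter held 4 matches, at -241 to -233, -230 to -222, -136 to -128 and -119 to -111 from the start site, and none of them overlapped another. Socs1 held 1 match, at -196 to -188, and the second of the 2 Prlr promoters held 1, at -176 to -168. No match was found in these windows for Ghr, Jak2, Stat5a, Stat5b, Stat3 and Socs3. Among all 33469 promoters of the same length, 8.87% held at least 1 match, 0.547% at least 2 and 0.00598%, which were those of Cish and the uncharacterised LOC120095689, at least 4. A match in these letters is a description of the sequence and not a measured binding site.

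The libraries held 10082734 to 75634391 counts. At 1 week every non-lactating library was deeper than every lactating one, with 41201635 to 51662983 counts against 30862144 to 39844090. Levels below are CPM, a count divided by the library's TMM-corrected size, given for replicates 1, 2 and 3 in that order, and differences are log2 fold changes of lactating over non-lactating. Calls in edgeR needed both an adjusted p below 0.05, taken over all genes tested, and a log2 change beyond 1 in either direction. Levels at 1 and 3 weeks stand side by side without a test, because the 1-week values are whole counts and the 3-week values estimated ones. Levels of different genes were not compared, since no transcript lengths were used. Of 10 skeletal muscle markers chosen, 9 were in the table, with a summed level of 75919 to 200193 CPM over the libraries.

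None of the 10 genes was called at 1 week, at 3 weeks or for the difference between the lactation effects, in edgeR with all 12 libraries. Over all tested genes, 37 (0.253%) were called at 1 week, 108 (0.740%) at 3 weeks and 1 (0.00685%) for the difference. At an unadjusted p under 0.05, 3 of the 10 genes passed at 1 week, 3 at 3 weeks and 2 for the difference, beside 18.9%, 21.1% and 4.42% of all genes. The median log2 fold change of the 10 genes was -0.03 at 1 week and -0.13 at 3 weeks, beside -0.00 and -0.02 for all genes. DESeq2 on all 12 libraries also called 0 of the 10 at either time and 0 for the difference, beside 188, 242 and 11 genes over the whole table.

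At 1 week, 1 of the 10 genes had all lactating libraries below all non-lactating ones (Cish), and 14.1% of all genes did so. Another 2, Stat5a and Stat5b, had all lactating libraries above, as did 14.3% of all genes. At 3 weeks 3 genes were lower without overlap (Prlr, Socs1 and Stat3), beside 10.4% of all genes, and 1 was higher (Ghr), beside 11.9%. The plot of levels by library shows every gene.

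**Figure D1:**
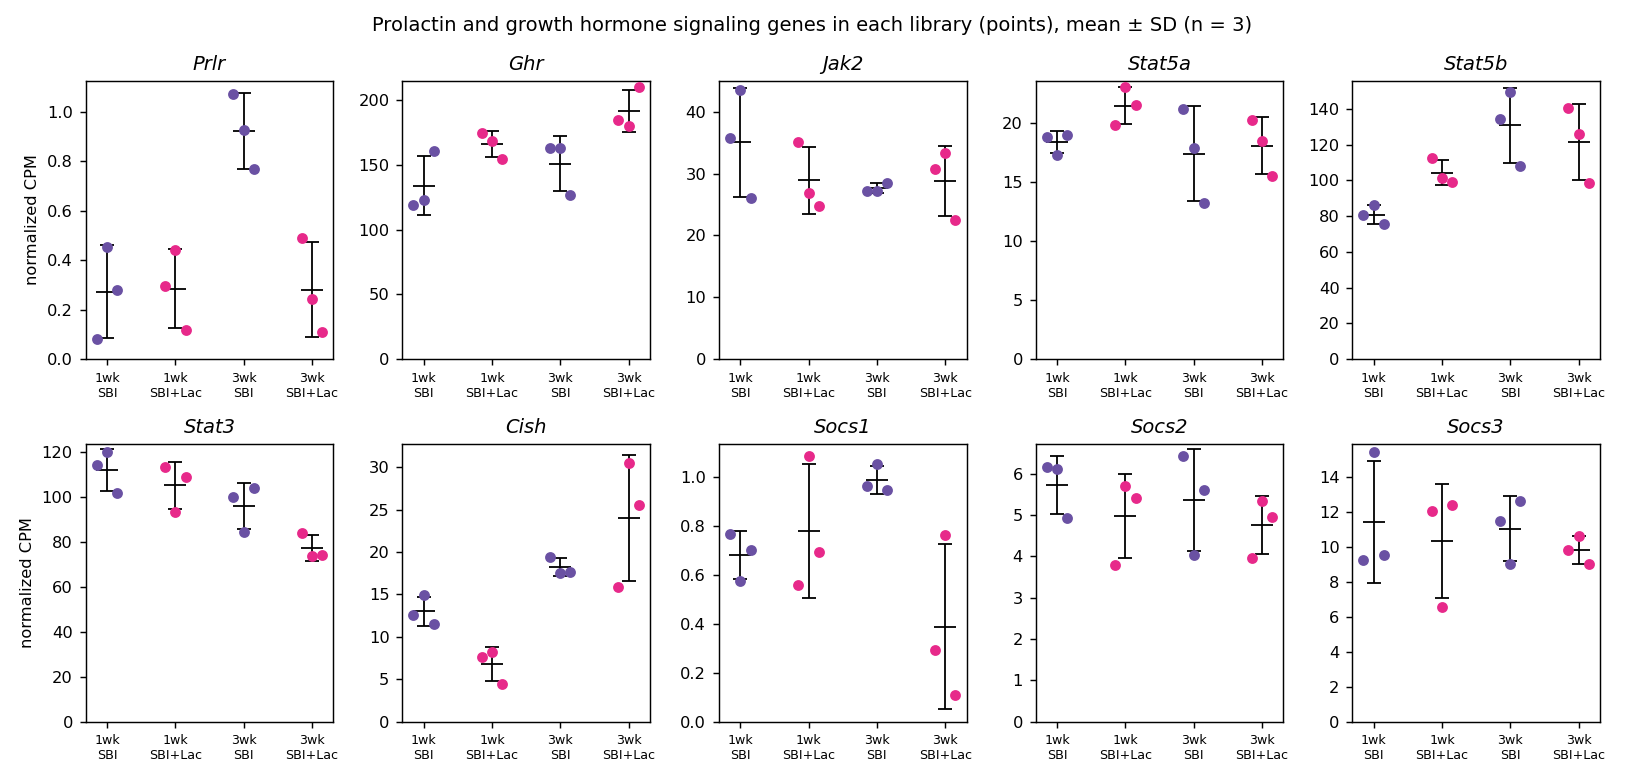
Normalized CPM of the 10 genes (vertical axis of each panel, starting at 0, on its own scale) in the 4 groups. Points are libraries, 3 per group, with replicates 1 to 3 from left to right, horizontal bars are means and whiskers are SD. Cish in 1wk SBI + Lac lies at 4.47 to 8.20 CPM, below 1wk SBI at 11.6 to 14.9, while Socs2 overlaps between the groups at both times.

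The prolactin receptor gene Prlr had a low level in every library. It lay above a floor of 3 counts in all but replicate 3 of 3wk SBI + Lac, which had 1. At 1 week its counts were 5, 27 and 12 without lactation and 9, 13 and 5 with it. These gave levels of 0.08, 0.46 and 0.28 CPM in the former and 0.30, 0.44 and 0.12 CPM in the latter. The groups overlapped across nearly their whole range. Lactation shifted it by a log2 value of 0.04 (SE 0.69), with a 95% confidence interval from -1.43 to 1.51 and an adjusted p of 0.984 in edgeR, so a change of more than 2-fold either way lay within the interval.

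At 3 weeks Prlr had 10, 15 and 64 counts without lactation and 15, 15 and 1 with it. Its levels were 1.07, 0.93 and 0.77 CPM in the non-lactating libraries and 0.49, 0.24 and 0.11 CPM in the lactating ones. All 3 lactating libraries were lower, with group means of 0.281 ± 0.192 against 0.923 ± 0.152 CPM (SD, n = 3). The log2 fold change was -1.55 (SE 0.70, 95% confidence interval -3.04 to -0.06) with an adjusted p of 0.220 in edgeR, which did not pass. The library with 1 count is replicate 3 of 3wk SBI + Lac, and 3 counts there would correspond to 0.330 CPM. Without that library the log2 fold change was -1.32, with an adjusted p of 0.397. Counting intervals were wide in every group, as the plot of the low-count genes shows, and they cover counting error only.

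Prlr is also made by mammary and other epithelial cells, and bulk RNA cannot tell fewer cells of a type from less RNA per cell. The summed level of 12 milk and epithelial markers was 1.38 to 2.61 CPM without and 2.03 to 4.68 CPM with lactation at 1 week, and 1.37 to 3.00 and 1.43 to 41.0 CPM at 3 weeks. In 3wk SBI + Lac the sums of replicates 1, 2 and 3 were 41.0, 12.6 and 1.43 CPM. This sum mixes milk genes with epithelial genes, which did not all move the same way. The casein genes Csn2, Csn1s2a and Csn3 were at 0 counts in all 6 non-lactating libraries, and Csn1s1, the other casein listed, had at most 1 count there. The epithelial adhesion gene Epcam had 16 counts or fewer in each library, with means of 0.182 and 0.219 CPM without and with lactation at 1 week. At 3 weeks they were 0.365 and 0.197 CPM. For the keratin gene Krt8 the means were lower with lactation, at 0.796 and 0.276 CPM (no overlap), then 0.886 and 0.249 CPM (overlap). For Cdh1, another adhesion gene, they were higher, at 0.691 and 0.761, then 0.634 and 0.896 CPM, with overlap. The part of such cells in the Prlr level was not tested.

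The growth hormone receptor gene Ghr was plainly present, with at least 119 CPM in every library. At 1 week it stood at 119, 123 and 160 CPM without lactation and at 175, 168 and 155 CPM with lactation. At 3 weeks the values were 163, 163 and 127 CPM in 3wk SBI and 185, 180 and 210 CPM in 3wk SBI + Lac. The lactating group had the higher mean at both times, with some overlap at 1 week and none at 3 weeks. On the log2 scale the lactating groups differed by 0.31 (SE 0.14) at 1 week and 0.34 (SE 0.14) at 3 weeks, with unadjusted p of 0.0389 and 0.0236 and adjusted p of 0.237 and 0.165 in edgeR. The difference between these effects was 0.04, with an interval from -0.37 to 0.45.

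The hormones themselves were not seen in the muscle. Prl, Gh1, Ghrh and the placental genes of the prolactin family Prl3b1, Prl8a2 and Prl2c1 were at 0 counts in all 12 libraries. A count of 0 allows up to 3 counts in a library. Prl3d1 was not analysed here.

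Jak2, the kinase bound to both receptors, did not pass the test at either time. At 1 week its levels were 35.8, 43.6 and 26.0 CPM without lactation and 35.1, 26.9 and 24.8 CPM with it. At 3 weeks they were 27.1, 27.2 and 28.5 CPM in 3wk SBI and 30.7, 33.3 and 22.4 CPM in 3wk SBI + Lac. The groups overlapped at both times. The log2 fold changes were -0.28 (95% confidence interval -0.67 to 0.11) and 0.08 (-0.33 to 0.48), with adjusted p of 0.415 and 0.853 in edgeR.

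Stat5a and Stat5b, the factors that Jak2 activates, were both somewhat higher in lactating libraries at 1 week, short of the test. Stat5b measured 80.8, 86.2 and 75.5 CPM in 1wk SBI and 112, 101 and 99.2 CPM in 1wk SBI + Lac. Stat5a measured 18.8, 17.3 and 19.0 CPM against 19.8, 23.0 and 21.5 CPM in the same groups. Neither gene's groups overlapped. Stat5b differed by a log2 fold change of 0.37 (SE 0.14, adjusted p 0.171) and Stat5a by 0.23 (SE 0.15, adjusted p 0.412) in edgeR.

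At 3 weeks the levels of both overlapped between the groups. Stat5b stood at 135, 150 and 108 CPM in 3wk SBI and at 141, 126 and 98.6 CPM in 3wk SBI + Lac, or -0.10 on the log2 scale (adjusted p 0.724). Stat5a stood at 21.1, 17.8 and 13.2 CPM and at 20.2, 18.5 and 15.5 CPM, or 0.10 on the log2 scale (adjusted p 0.749). For Stat5b the lactation effect at 3 weeks less that at 1 week was -0.47, with an unadjusted p of 0.0316 and an adjusted p of 0.999 in edgeR. Stat5a and Stat5b lie next to each other on rat chromosome 10 and their sequences are closely alike, so the split of reads between them is uncertain. Their summed level was 99.2 ± 4.54 CPM without and 126 ± 5.91 CPM with lactation at 1 week, and 148 ± 24.0 and 140 ± 23.7 CPM at 3 weeks (SD, n = 3).

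Stat3, which signals for the receptors of the interleukin 6 family and to a lesser degree for those of prolactin and growth hormone, lies beside Stat5a on the same chromosome. At 1 week its levels were 114, 120 and 102 CPM without lactation and 113, 93.3 and 109 CPM with it, and they overlapped. At 3 weeks they were 99.8, 84.3 and 104 CPM in 3wk SBI and 84.1, 73.7 and 74.2 CPM in 3wk SBI + Lac, with every lactating library below every other, by a narrow margin for the nearest pair. Stat3 had a log2 fold change of -0.09 (adjusted p 0.705) at 1 week and -0.31 (SE 0.12, adjusted p 0.141) at 3 weeks in edgeR.

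Cish, a feedback inhibitor and direct target of Stat5, had the smallest p of the 10 genes at 1 week. It measured 12.6, 14.9 and 11.6 CPM in 1wk SBI and 7.61, 8.20 and 4.47 CPM in 1wk SBI + Lac. All 3 lactating libraries were lower, with a mean of 6.76 ± 2.01 against 13.0 ± 1.72 CPM (SD, n = 3). The level without lactation was 1.94-fold that with lactation, a log2 fold change of -0.95 (SE 0.24, 95% confidence interval -1.47 to -0.44). The unadjusted p was 0.00142, rank 292 of 14599, and the adjusted p was 0.0711 in edgeR, so the gene missed the call on both the adjusted p and the fold.

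This value lay near both limits and moved across them with the processing. DESeq2 gave the same log2 fold change, -0.95, with an adjusted p of 0.00717, still short of the fold limit. Without replicate 3 of 1wk SBI the value was -1.03 with an adjusted p of 0.0432, which was a call. Without replicate 3 of 1wk SBI + Lac it was -0.72 with an adjusted p of 0.119. When all libraries were thinned to the smallest total, 3 of 10 draws called Cish, with values from -1.21 to -0.83.

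At 3 weeks Cish measured 19.4, 17.5 and 17.7 CPM in 3wk SBI and 15.9, 30.5 and 25.5 CPM in 3wk SBI + Lac. The lactating libraries spread widely, with 1 below and the other two above the non-lactating ones. The means were 24.0 ± 7.43 and 18.2 ± 1.05 CPM (SD, n = 3). Lactating over non-lactating, this was a log2 fold change of 0.40 (SE 0.24, 95% confidence interval -0.10 to 0.91) with an adjusted p of 0.350 in edgeR. Without replicate 2 of 3wk SBI + Lac it was 0.16, with an adjusted p of 0.756.

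The lactation effect on Cish at 3 weeks less that at 1 week was 1.36 (SE 0.33, 95% confidence interval 0.64 to 2.08). Its unadjusted p of 0.0013 ranked 25 of 14599, and its adjusted p of 0.757 in edgeR did not pass. DESeq2 gave 1.35 with an adjusted p of 0.101. The effects at the 2 time points thus pointed in opposite directions without a difference that held over the whole table. The plot of lactation effects shows Cish as the one gene of the 10 whose interval excluded 0 at 1 week on the lower side.

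**Figure D2:**
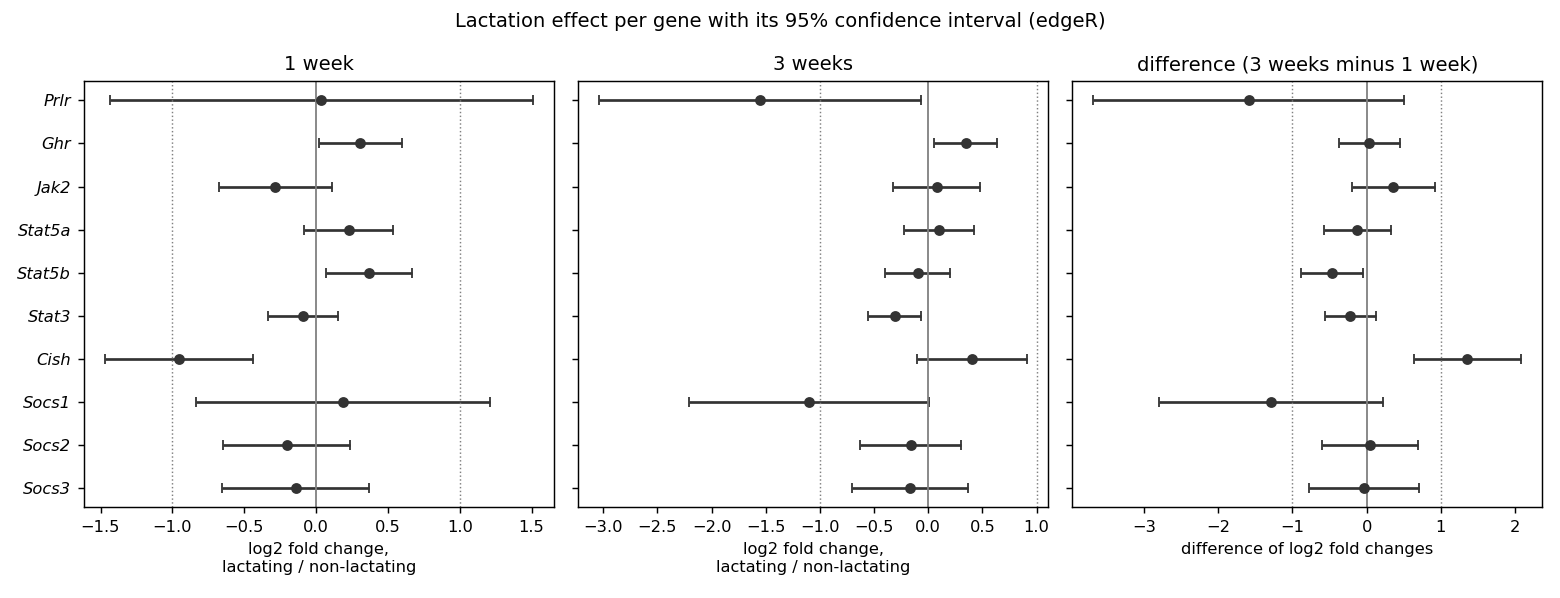
Log2 fold change of lactating over non-lactating libraries at 1 week (left) and 3 weeks (middle), and the effect at 3 weeks minus that at 1 week (right), for the 10 genes. Points are edgeR estimates, bars are 95% confidence intervals before adjustment for multiple tests and dotted lines mark a log2 value of 1 either way, with a horizontal scale that differs by panel. Cish lies at -0.95 on the left, at 0.40 in the middle and at 1.36 on the right.

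Some cell type markers also had different levels in the groups of the Cish comparison, short of a call in edgeR at 1 week. The summed level of 9 leukocyte markers was 160 to 190 CPM in 1wk SBI and 93.4 to 145 CPM in 1wk SBI + Lac, and all 7 of those tested were lower with lactation at both times. At 3 weeks it was 112 to 243 CPM in 3wk SBI and 90.8 to 128 CPM in 3wk SBI + Lac. Among these markers the macrophage gene Cd68 was called lower at 3 weeks, at -1.08 on the log2 scale (adjusted p 0.0150) in edgeR. Without replicate 3 of 3wk SBI, or replicate 1 or 3 of 3wk SBI + Lac, that call was lost, with adjusted p of 0.0541, 0.0804 and 0.0606. At 1 week Cd68 stood at -0.96 with an adjusted p of 0.0417, which reached up to 0.197 with 1 library left out. Summed skeletal muscle markers were 75919 to 122703 CPM in 1wk SBI and 121522 to 145395 CPM in 1wk SBI + Lac, ranges that overlapped narrowly. At 3 weeks they were 118947 to 160901 CPM in 3wk SBI and 172331 to 200193 CPM in 3wk SBI + Lac, without overlap. Of the 9 muscle markers tested, 9 were higher with lactation at 1 week, and 6 were higher and 3 lower at 3 weeks. The satellite cell gene Pax7, named after its values were seen, was lower with lactation without overlap at both times, at -1.03 (adjusted p 0.0905) and -1.20 (adjusted p 0.0543) in edgeR, and DESeq2 called it at both. Myf5, a gene of satellite cells and myoblasts, was lower without overlap at 1 week, at -0.96 (adjusted p 0.0925), and overlapped at 3 weeks. From the same list, Myod1 stood at 0.04 at 1 week and 0.24 at 3 weeks, higher with lactation. Myog stood at -0.60 and -0.31, and both genes overlapped between the groups at both times. The part of these cell types in the levels of Cish and the other genes was not tested.

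Socs2, the other gene asked about and the main brake on growth hormone signaling, did not pass the test at either time. It measured 6.15, 6.11 and 4.92 CPM in 1wk SBI and 3.80, 5.70 and 5.42 CPM in 1wk SBI + Lac. At 3 weeks it measured 6.44, 4.02 and 5.62 CPM in 3wk SBI and 3.97, 5.35 and 4.95 CPM in 3wk SBI + Lac. The groups overlapped at both times. The log2 fold change was -0.20 (95% confidence interval -0.65 to 0.24, adjusted p 0.628) at 1 week and -0.16 (-0.63 to 0.31, adjusted p 0.709) at 3 weeks in edgeR. A doubling or a loss to 50% lay outside both intervals.

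Socs1, an inhibitor that binds Jak kinases and is best known from interferon signaling, was sparse. At 1 week it had 48, 34 and 30 counts without lactation and 17, 32 and 29 with it, or 0.77, 0.57 and 0.70 CPM against 0.56, 1.08 and 0.69 CPM. At 3 weeks it had 9, 17 and 79 counts without lactation and 9, 47 and 1 with it, or 0.97, 1.05 and 0.95 CPM against 0.29, 0.76 and 0.11 CPM. The lactating libraries were all lower at 3 weeks only. Socs1 had a log2 fold change of 0.19 (adjusted p 0.868) at 1 week and -1.10 (SE 0.52, 95% confidence interval -2.20 to 0.01, adjusted p 0.240) at 3 weeks in edgeR. Replicate 3 of 3wk SBI + Lac again had 1 count, and without it the value at 3 weeks was -0.83.

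**Figure D3:**
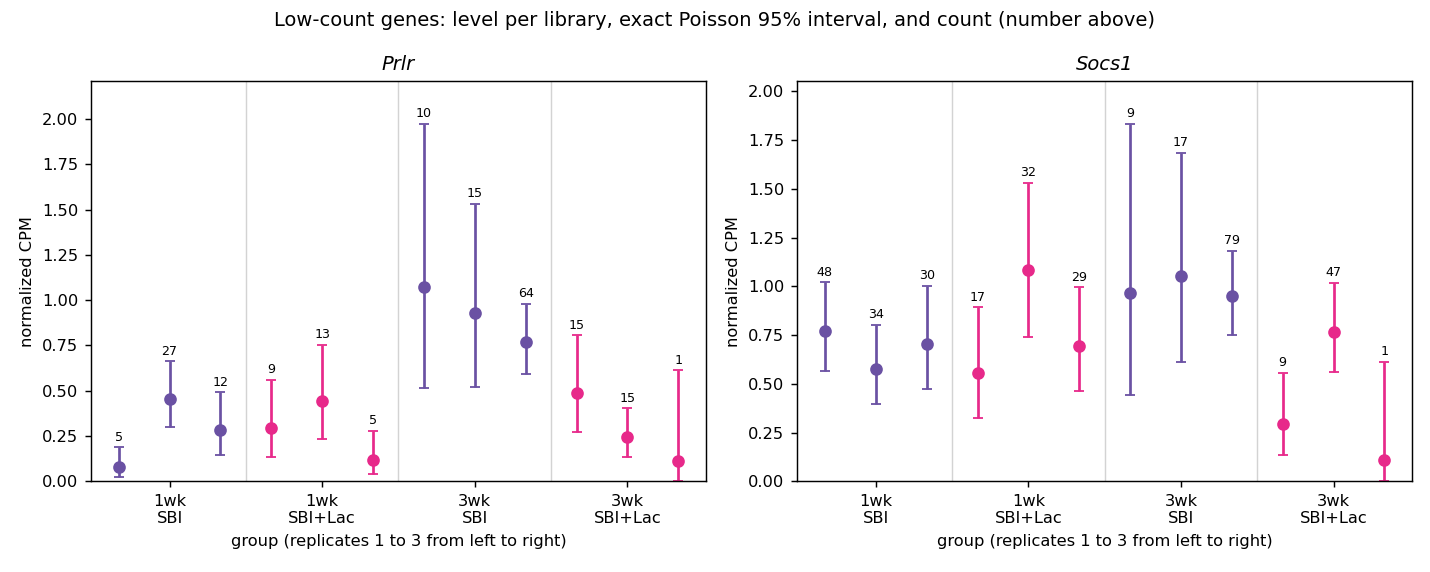
Normalized CPM of Prlr (left) and Socs1 (right) in each of the 12 libraries, replicates 1 to 3 from left to right within a group, with the vertical axis starting at 0. Bars are exact Poisson 95% intervals of the count, which cover counting error only, and the number above each bar is the count. At 3 weeks every lactating library lies below every non-lactating one for both genes, and the library with 1 count has an interval up to 0.612 CPM.

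Socs3, the inhibitor most closely tied to Stat3 and interleukin 6, overlapped between the groups at both times. Its levels were 9.24, 15.5 and 9.58 CPM in 1wk SBI and 12.1, 6.58 and 12.4 CPM in 1wk SBI + Lac. At 3 weeks they were 11.5, 9.04 and 12.7 CPM in 3wk SBI and 9.83, 10.6 and 9.01 CPM in 3wk SBI + Lac. Fold changes were small, at -0.14 (adjusted p 0.785) on the log2 scale and -0.17 (adjusted p 0.735) in edgeR.

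Other genes known to respond to Stat5 were looked up as a list. It was not split by the direction in which Stat5 moves each gene. Its counts and median therefore do not measure Stat5 activity. Of 20 listed, 18 were tested and 0 were called at either time in edgeR, beside 0.253% and 0.740% of all genes. An unadjusted p under 0.05 was found for 5 at 1 week and 7 at 3 weeks, as it was for 18.9% and 21.1% of all genes. DESeq2 called 0 as well, beside 188 and 242 genes over the whole table. Its adjusted p was passed by 1 at 1 week (Gadd45g) and 3 at 3 weeks (Gadd45g, Igfbp3 and Ccnd1). At 1 week 5 were higher and 13 lower with lactation, and at 3 weeks 7 were higher and 11 lower. The median log2 fold change was -0.18 and -0.27, beside -0.00 and -0.02 for all genes. At 1 week 3 were higher and 1 lower without overlap, beside 14.3% and 14.1% of all genes. At 3 weeks 2 were higher and 5 lower, beside 11.9% and 10.4%.

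Igf1, the growth factor through which growth hormone acts, measured 96.8 ± 29.5 CPM without lactation and 57.3 ± 13.9 CPM with it at 1 week. At 3 weeks it measured 49.8 ± 17.6 and 32.6 ± 4.80 CPM (SD, n = 3). The lactating mean was the lower at both times, but the groups overlapped, with adjusted p of 0.183 and 0.244 for log2 fold changes of -0.75 and -0.63 in edgeR. Igfbp3, which carries Igf1 in the blood, was lower at 3 weeks without overlap, at 35.1 ± 8.74 against 59.0 ± 11.5 CPM (SD, n = 3), with an adjusted p of 0.0868. Ccnd1, a cyclin that drives entry into the cell cycle, had log2 fold changes of -0.47 (adjusted p 0.199) and -0.77 (adjusted p 0.0608).

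Gadd45g, a stress-response gene that growth arrest and several cytokines induce, had values in the other direction. It measured 8.04 ± 2.69 CPM in 1wk SBI and 14.0 ± 2.09 CPM in 1wk SBI + Lac, and 12.7 ± 2.13 and 24.4 ± 1.34 CPM in the 3-week groups (SD, n = 3). The groups did not overlap at either time. The log2 fold change was 0.81 (SE 0.20, adjusted p 0.0651) at 1 week and 0.92 (SE 0.20, adjusted p 0.0296) at 3 weeks in edgeR, the latter past the adjusted p but short of the fold limit. Without replicate 3 of 1wk SBI the 1-week value was 1.10 (adjusted p 0.00357), and without replicate 3 of 3wk SBI the 3-week value was 1.09 (adjusted p 0.0431), and both were then calls. Leaving out each library in turn gave 0.62 to 1.10 at 1 week, with adjusted p up to 0.296, and 0.83 to 1.09 at 3 weeks, where the adjusted p rose above 0.05 without any one of the other 3-week libraries, to at most 0.103. Thinning gave 0.99 (adjusted p 0.0439) at 1 week and 0.80 (adjusted p 0.0574) at 3 weeks.

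Genes known to respond to Stat3 included the only call among the pathway lists in edgeR, 1 gene at 3 weeks. Over all tested genes 0.740% were called at that time. Of 17 listed, 15 were tested, of which DESeq2 called the same 1 gene, beside 242 genes over the whole table at 3 weeks. In edgeR, 5 were higher and 10 lower with lactation at each time. The median log2 fold change was -0.30 at 1 week and -0.22 at 3 weeks, beside -0.00 and -0.02 for all genes. An unadjusted p under 0.05 was found for 7 at 1 week and 6 at 3 weeks, beside 18.9% and 21.1% of all genes. Without overlap, 1 was higher and 3 lower at 1 week, beside 14.3% and 14.1% of all genes. At 3 weeks 3 were higher and 3 lower, beside 11.9% and 10.4%. Cebpd, a transcription factor of the acute-phase response that glucocorticoids also induce, measured 7.31 ± 0.587 CPM in 1wk SBI and 13.9 ± 1.78 CPM in 1wk SBI + Lac. At 3 weeks it measured 12.6 ± 3.19 and 25.5 ± 6.39 CPM (SD, n = 3). It rose at 3 weeks, by a log2 fold change of 1.04 (SE 0.20, adjusted p 0.0151), and stood at 0.93 (adjusted p 0.0474) at 1 week, short of the fold limit. With 1 library left out, its adjusted p at 1 week reached up to 0.231.

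The Cebpd call at 3 weeks was lost when replicate 2 of 3wk SBI was left out (0.86), and when replicate 1 (1.02, adjusted p 0.0657) or replicate 2 (0.87) of 3wk SBI + Lac was. Thinning the libraries to equal totals gave 0.99 at 3 weeks, short of the fold limit, and 1.02 at 1 week, a call. Hif1a, a regulator of the response to low oxygen, had log2 fold changes of -0.42 (adjusted p 0.0745) and -0.47 (adjusted p 0.0439). With 1 library left out, its adjusted p at 3 weeks reached up to 0.184. Vegfa, a growth factor for blood vessels, had 0.47 (adjusted p 0.0923) and 0.46 (adjusted p 0.0796). Both kept 1 direction at the 2 times and neither was called.

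**Figure D4:**
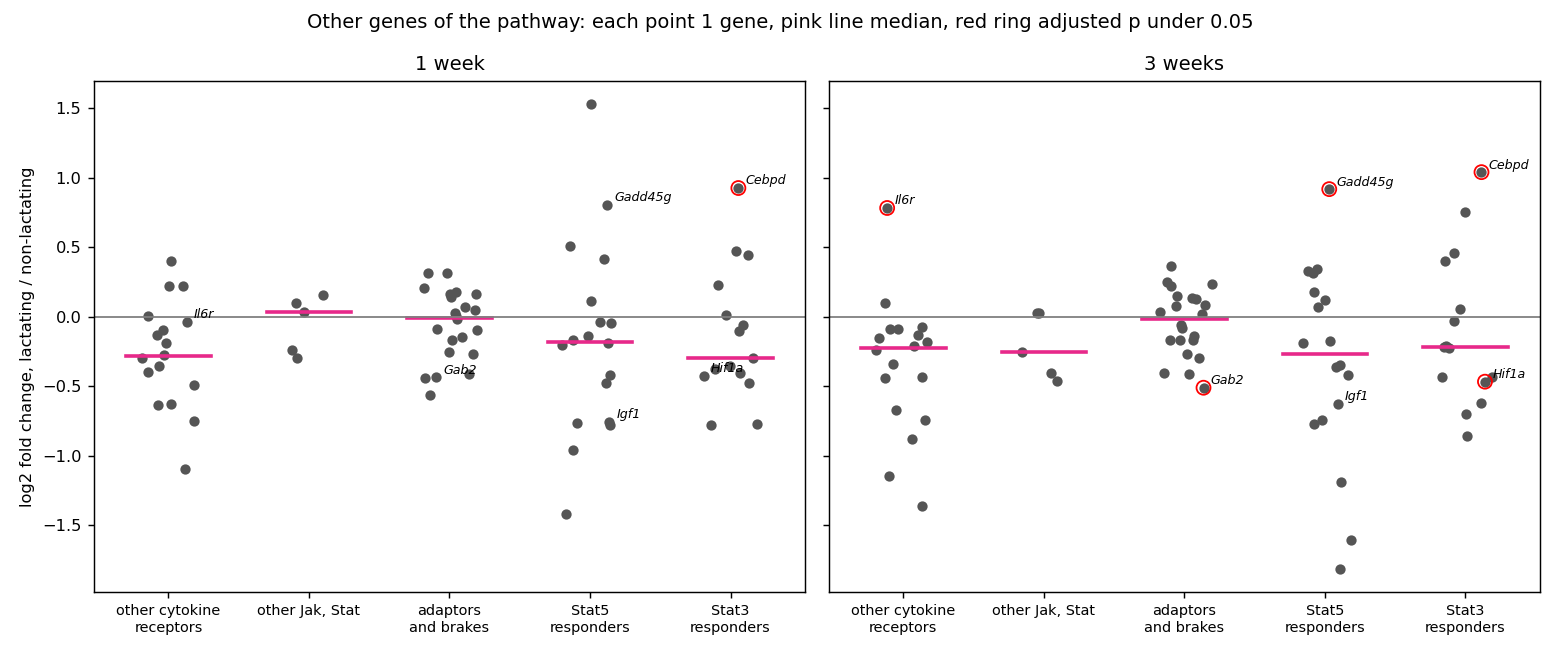
Log2 fold change of lactating over non-lactating libraries for the tested genes of 5 lists around the pathway, at 1 week (left) and 3 weeks (right). Each point is 1 gene, lines are list medians and rings mark an adjusted p under 0.05 in edgeR, and Il10rb is left out at 1 week because its libraries of 1wk SBI + Lac were at 0. Cebpd lies at 0.93 and 1.04, Gadd45g at 0.81 and 0.92, and most Stat5 responders lie below 0 at both times.

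The genes whose levels followed Prlr, Cish and Socs2 most closely were looked up over the 12 libraries, as log2 CPM centred within each time point. The points share library, depth and lactation group, so the correlations are a description. The closest to Prlr were Pacsin2 (Pearson r 0.911), Znf8 (0.908), Cul9 (0.906), Atosa (0.905) and Katna1 (0.883). Those closest to Cish were Rps4x (0.882), a ribosomal protein gene, then Snx24 (0.848), Gnl3 (0.839), Ostc (0.804) and Arl6ip6 (0.802). Those closest to Socs2 were Fam110d (0.885), Cpne7 (0.878), Nme1 (0.871), Gtf2e2 (0.859) and LOC100362400 (0.856). None of these neighbours was another of the 10 genes, and Cish and Socs2 themselves had a Pearson r of 0.335.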

How the data were processed

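Polyadenylated RNA of the pubocaudalis was pooled from 2 rats per library and sequenced in 12 libraries, 3 for each of 4 groups. The authors deposited 1 table of gene counts, not normalized. Its 1-week columns hold whole counts. Its 3-week columns, as deposited, hold estimated counts, with decimals in 26.6% to 44.0% of values per library, and were rounded for the tests, where the planned design had taken whole counts. Salmon is named in the submitters' processing notes, and its version, the build and the gene annotation are not given in the sources used here. The study calls the pools technical replicates, while the labels give each its own rats.

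Counts were tested with edgeR 4.0.16 under R 4.3.3 (TMM, filterByExpr, robust quasi-likelihood over 12 libraries, Benjamini-Hochberg adjustment), with DESeq2 1.42.0, which the study used, as an alternative. Each SE is the log2 fold change over the root of F. The fit was tested on simulated data. Other alternatives were RLE and upper-quartile normalization, no low-count filter or at least 10 counts in every library, no fold cutoff, a replicate block, other library sizes, thinning (9 of 10 draws added after seeing the data), the libraries of 1 time point and leaving out each library. The genes and lists were chosen with earlier results of these data known. All 10 genes are named, and of each pathway list the genes called or otherwise up to 3 with the smallest p at a time point. Some genes of the marker lists are also named. Marker lists covered skeletal muscle, milk and epithelium, leukocytes, fibroblasts, adipocytes, endothelium, satellite cells with myoblasts, erythroid cells and smooth muscle. Not analysed here were Il2rg, Jak3, Icam1, Prl3d1, Myh1, Krt14 and Cd4.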

Additional observations from a re-analysis of the deposited data

How the results depend on the processing

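Of 637 recomputed values for the 10 genes, 605 kept their direction and side of the call, 28 changed sign and 4 became calls, all of Cish at 1 week. The count of genes called at 1 week moved from 0 to 1 without replicate 3 of 1wk SBI and in 3 of 10 thinning draws (range with each library left out 0 to 1), and stayed 0 at 3 weeks and for the difference in every alternative run. Sign changes came with 1 library left out in 26 cases. The ranges then were -0.42 to 0.67 for Prlr, -0.12 to 0.37 for Socs1 and -0.29 to 0.14 for Socs3 at 1 week (-0.049 to 0.428 for Stat4, another gene of the lists), -0.041 to 0.225 for Jak2, -0.086 to 0.253 for Stat5a and -0.220 to 0.043 for Stat5b at 3 weeks, and -0.11 to 0.11 for Ghr, -0.313 to 0.025 for Stat5a, -0.11 to 0.17 for Socs2 and -0.31 to 0.12 for Socs3 in the difference. Thinning turned Socs2 at 3 weeks to 0.13 and the difference for Socs3 to 0.13. The cause was not tested. Prlr and Socs1 had too few counts to be tested after thinning or with at least 10 counts in every library, and DESeq2 on the 3-week libraries gave no adjusted p for Prlr.

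Calls over all genes were 37 at 1 week, 108 at 3 weeks and 1 for the difference. DESeq2 on all 12 libraries made 188, 242 and 11, and on the libraries of a time point 332 and 175, where edgeR made 110 and 73. At least 10 counts in every library left 22 and 86. With no fold cutoff 83 and 371 passed. Leaving out 1 library gave 2 to 235 and 22 to 157, with the highest 1-week count without replicate 3 of 1wk SBI and the highest 3-week count without replicate 1 of 3wk SBI. With a replicate block the counts were 8, 64 and 2, Cish at 1 week stood at -0.96 (adjusted p 0.0988) and the 10 genes kept 0 calls. Same-numbered libraries come from different rats and their deviations correlated negatively in every pair, so the numbers were not taken as pairs.

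Depth limits Prlr and Socs1 most, since 1 count decides their value in the shallow replicate 3 of 3wk SBI + Lac. With 3 libraries per group, the p-values measure the spread between pools. All lactating libraries at 1 week were the shallower ones, so depth and lactation cannot be told apart there beyond what thinning shows.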

Other observations

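Other receptors that signal through Jak2 or a related Jak kinase held 18 tested genes of 21 listed. At either time 0 of them were called in edgeR, beside 0.253% and 0.740% of all genes. An unadjusted p under 0.05 was found for 3 at each time, beside 18.9% and 21.1% of all genes. DESeq2 on all 12 libraries called 0 of these receptors, and 0 of the Jak, Stat, adaptor and brake genes below, at either time. Over the whole table it called 188 and 242 genes. The median log2 fold change was -0.28 at 1 week and -0.22 at 3 weeks, beside -0.00 and -0.02 for all genes. Il6r, the receptor of interleukin 6, measured 18.8 ± 4.02 CPM in 3wk SBI and 33.0 ± 2.68 CPM in 3wk SBI + Lac (SD, n = 3), without overlap. Its log2 fold change of 0.78 (SE 0.16) passed the adjusted p at 0.0180 in edgeR but not the fold limit, and at 1 week it was -0.03. With 1 library left out, its adjusted p at 3 weeks reached up to 0.0806. Csf2rb, the shared chain of receptors that act on myeloid cells, was lower without overlap at both times, at -0.75 (adjusted p 0.150) and -0.88 (adjusted p 0.0991). Lifr, the receptor of leukemia inhibitory factor, was higher without overlap at 1 week only, at 0.40 (adjusted p 0.111) against -0.15 at 3 weeks. Il4r stood at -0.35 (adjusted p 0.141) at 1 week and Osmr at -0.43 (adjusted p 0.188) at 3 weeks.

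Of 7 other Jak and Stat genes listed, 5 were tested and 0 were called in edgeR, beside 0.253% and 0.740% of all genes. Their medians were 0.03 and -0.25, with 1 and 2 at an unadjusted p under 0.05, which 18.9% and 21.1% of all genes had. Stat6, the factor downstream of interleukin 4, was lower without overlap at 3 weeks, at 17.5 ± 2.36 against 24.1 ± 3.04 CPM (SD, n = 3), with a log2 fold change of -0.46 and an adjusted p of 0.0712. Stat2, a factor of interferon signaling, overlapped between the groups at 3 weeks, at -0.40 (unadjusted p 0.0283, adjusted p 0.179). Tyk2 stood at -0.24 and -0.25 at the 2 times and Stat4 at 0.16 at 1 week, all with overlap. The 22 adaptors and brakes of the receptors were all tested and 0 were called, beside the same shares of all genes. Their medians were -0.01 and -0.02, with 4 and 8 at an unadjusted p under 0.05. Gab2, an adaptor that links receptors to downstream kinases, was lower without overlap at both times, at -0.44 (adjusted p 0.0853) and -0.51 (adjusted p 0.0448), short of the fold limit. With 1 library left out, its adjusted p at 3 weeks reached up to 0.194. Shc1, another adaptor, stood at -0.44 (adjusted p 0.0856) at 1 week, as Grb10 did at -0.41 (adjusted p 0.155). At 3 weeks Sh2b3, a brake on Jak2, stood at 0.37 (adjusted p 0.0676) and the insulin receptor substrate Irs1 at -0.41 (adjusted p 0.0904).

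Summed levels of the other marker lists are given as ranges over libraries first for the non-lactating and lactating groups at 1 week and then for the same pair at 3 weeks. Erythroid markers ran from 242 to 414, 556 to 780, 97.3 to 183 and 132 to 242 CPM. Fibroblast markers ran from 5727 to 8283, 3390 to 6329, 2794 to 6360 and 1689 to 2439 CPM. Satellite cell and myoblast markers ran from 90.5 to 155, 91.1 to 98.8, 73.6 to 79.8 and 62.4 to 81.7 CPM. Most of that sum was Myog and Myod1, with means of 81.3 and 33.3 CPM in 1wk SBI, beside 6.09 for Myf5 and 5.47 for Pax7. Endothelial markers ran from 243 to 257, 234 to 247, 206 to 287 and 190 to 246 CPM. Smooth muscle markers ran from 3726 to 4645, 4729 to 4811, 3314 to 4627 and 4059 to 4989 CPM. Most of that sum was desmin (Des), which skeletal muscle fibers also make, so it does not measure smooth muscle. In 1wk SBI the mean of Des was 3988 CPM, beside 89.4 for Acta2, 48.8 for Myh11 and 1.64 for Cnn1. Adipocyte markers ran from 3.17 to 5.01, 1.28 to 5.02, 3.86 to 10.2 and 1.21 to 12.3 CPM. Only the erythroid markers at 1 week, and no other of these lists, separated the groups at a time point without overlap for all of their tested genes.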
